A study of Caenorhabditis elegans with 4 samples.

Results

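Chromosome IV carried 361 of the 2343 NHR-28 binding peaks in the series-level list, 110 of the 649 peaks of ChIP replicate 1 and 72 of the 495 peaks of ChIP replicate 2. All peaks listed on that chromosome were taken, whatever their strength. The data come from embryos of Caenorhabditis elegans strain OP317, hermaphrodites kept at 20 degrees Celsius. This strain holds the transgene wgIs317, which adds nhr-28 fused to the tags TY1, EGFP and FLAG, together with a rescuing unc119 gene, to an unc119(ed3) background. The 4 libraries were 2 anti-GFP ChIP libraries and 2 input libraries of the same strain, each pair numbered replicate 1 and replicate 2. All 4 carry the transgene, which was introduced by bombardment, and the strain was outcrossed 3 times, so the lists have no comparison with worms that lack the tagged protein. Only the ChIP libraries have peak lists. No input values were used here, and the labels do not tell whether the replicates were separate cultures.

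NHR-28 belongs to the nuclear hormone receptors, transcription factors that grip DNA through a pair of zinc fingers and often bind small fat-soluble molecules through a separate ligand-binding domain. This family is much larger in C. elegans than in mammals, and many of its worm members have no known ligand. ChIP-seq marks where such a protein was crosslinked to chromatin, averaged here over all cells of the embryo. The chromosomes of this worm have no single centromere, and geneticists divide each autosome into a gene-dense, rarely recombining centre and 2 more repetitive, highly recombining arms.

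Each peak has a start, an end and the peak caller's p-value or q-value, called the caller value below. A lower caller value, or a higher −log10 of it, is a stronger peak. Caller values grow more extreme with read depth, which is unknown, so their levels are compared within a list and not between lists. Ranks count from the strongest peak over all chromosomes of a list, unless stated otherwise. A peak had a partner in another list when both intervals overlapped by 1 bp or more. Positions are on WormBase WS220. No annotation or genome of that build was used, so the sites are given by coordinates, without genes or sequences. The peak numbers of the series-level list run to 2366 and skip 23 numbers, all between 978 and 2326, so "no partner" means no row in the list at hand.

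The strongest chromosome IV site lay on the right arm, at 14032486 to 14034580. This wide peak of 2095 bp had a −log10 caller value of 46.2 in the series-level list (rank 3), 29.5 in replicate 1 (rank 1) and 14.5 in replicate 2 (rank 13). Next came a centre site at 11025803 to 11026388 with 35.7 in the series-level list (rank 8), 13.8 in replicate 1 (rank 17) and 19.7 in replicate 2 (rank 2). The order of these leading sites therefore turned round between the replicates. The strongest left-arm site, at 654699 to 655084, had 27.1 in the series-level list (rank 21), 11.7 in replicate 1 (rank 32) and 13.0 in replicate 2 (rank 21). It was a narrower site of 386 bp, and its ranks differed little among the lists.

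Of the 15 strongest chromosome IV peaks found in both replicate lists, 3 lay on the left arm, 10 in the centre and 2 on the right arm. The narrowest was 343 bp wide, the median 544 bp and the widest 2095 bp. In the replicate lists 8 of the 15 were within the first 100 ranks of both, 13 within those of replicate 1 and 10 within those of replicate 2. The centre sites at 5656973 to 5657703 and 8926989 to 8927469 ranked 30 and 39 in the series-level list. Replicate 1 put the first of them at rank 23 and the second at rank 48, while replicate 2 put them at ranks 47 and 22. The replicates thus placed each among their stronger peaks, in opposite order.

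The ranks of some of these leading sites differed widely between the replicates. The centre site at 8431448 to 8433194, 1747 bp wide, ranked 42 in the series-level list and 38 in replicate 1, but 441 of 495 in replicate 2. Its replicate 1 peak spanned 1014 bp, and its replicate 2 peak only 254 bp within that stretch. The site at 11549683 to 11550136 ranked 58 in the series-level list, 37 in replicate 1 and 189 in replicate 2. In the other direction, 7573857 to 7574278 ranked 43 in the series-level list, 93 in replicate 1 and 25 in replicate 2. With 1 library a replicate, such rank differences have no test.

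The remaining sites of the 15 were ranked more evenly than those just named, though not alike. For example, the ranks in replicates 1 and 2 were 30 and 45 at 4749857, and 51 and 105 at 17278183. The site at 4749857 to 4750216 had a −log10 caller value of 20.5 in the series-level list, 12.03 in replicate 1 and 9.07 in replicate 2. The rightmost, at 17278183 to 17278783, had 17.8, 10.2 and 6.27 in the same lists. Left-arm sites at 2408349 to 2408892 and 3232675 to 3233917 had series-level values of 17.04 and 16.05, and the second was 1243 bp wide. The centre sites at 11593331 to 11594248, 8252848 to 8253190 and 11474060 to 11474410 closed the group with series-level values of 16.8, 16.3 and 15.6. The other 36 peaks found in both replicate lists had series-level −log10 values from 3.33 to 14.96, with a median of 10.1, and a median width of 390 bp.

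Replicate support on chromosome IV was close to that of the other autosomes. Of its 361 series-level peaks, 51 (14.1%, 95% Clopper-Pearson interval 10.7 to 18.2%) had a partner in both replicate lists, against 14.6% of all series-level peaks and 262 of the 1810 peaks on the other autosomes (14.5%). The odds ratio of chromosome IV to the other autosomes was 0.97 (95% interval 0.69 to 1.35, Fisher's exact test, adjusted p = 0.93). At least 1 replicate list held a partner of 114 chromosome IV peaks (31.6%), against 31.7% over the whole list. These were 51 in both, 49 in replicate 1 only (13.6%) and 14 in replicate 2 only (3.88%). Over the whole list 11.4% of peaks were in replicate 1 only and 5.72% in replicate 2 only. These single-replicate shares were not tested. The other 247 chromosome IV peaks (68.4%) were in neither.

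Support followed strength closely. Among the 30 strongest chromosome IV peaks 29 (96.7%) were in both replicate lists and the other was in replicate 1. Among those ranked 31 to 60 on the chromosome 17 were in both lists and 3 in neither, and among those ranked 61 to 90 the numbers were 3 and 10. Below these, 64 of the next 90 and 170 of the last 181 were in neither list. These counts by rank were made for chromosome IV only, so they do not show a gradient particular to it. Peaks in both lists had a median −log10 caller value of 12.1 on chromosome IV and 11.3 on the other autosomes. For peaks in neither list the medians were 3.72 and 3.73. The series-level list shares its libraries with the replicate lists, so this gradient is no separate evidence for the strong sites.

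**Figure D1:**
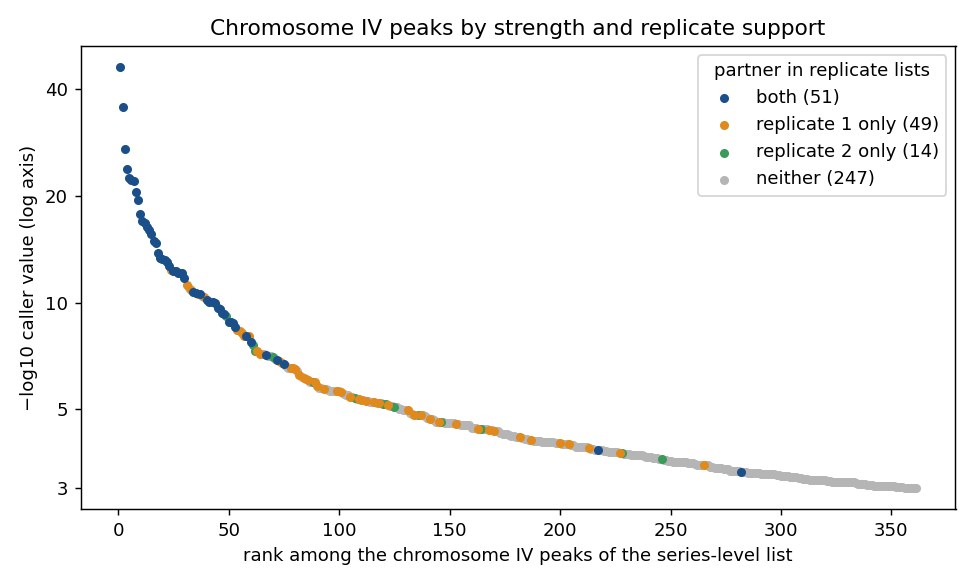
−log10 caller value (log axis) of the 361 chromosome IV peaks of the series-level list against their rank on the chromosome, coloured by which replicate lists hold a partner. Peaks in both lists fill nearly all of the first 30 ranks, and peaks in neither make up 170 of the last 181.

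Peaks of replicate 1 on chromosome IV had a partner in replicate 2 in 55 of 110 cases (50.0%, interval 40.3 to 59.7%), against 53.8% over all chromosomes. In the other direction the same 55 sites were 76.4% (interval 64.9 to 85.6%) of the 72 replicate 2 peaks, against 70.5% over all chromosomes. Both overall shares lie inside the chromosome IV intervals. Shared sites were the stronger ones. The 55 shared peaks of replicate 1 had a median −log10 caller value of 6.23, against 3.63 for the 55 others, and those of replicate 2 had a median of 4.84, against 3.46 for the 17 others. No caller value in the lists exceeds 0.001.

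Caller values of the replicates, as −log10, had a Pearson's r of 0.66 and a Spearman's rho of 0.60 over these 55 sites. The corresponding values were 0.85 and 0.67 over 264 sites of the other autosomes together. By chromosome, r was 0.84 on I, 0.78 on II, 0.83 on III and 0.89 on V. Spearman's rho was 0.66, 0.62, 0.65 and 0.71 in the same order. Without its strongest site r was 0.64 on chromosome IV, and no such value was computed for the others. These are descriptions across sites that share their libraries and peak caller. Peak starts differed between the replicates by a median of 31 bp and ends by 33 bp, close to the 29.5 and 27.5 bp on the other autosomes.

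**Figure D2:**
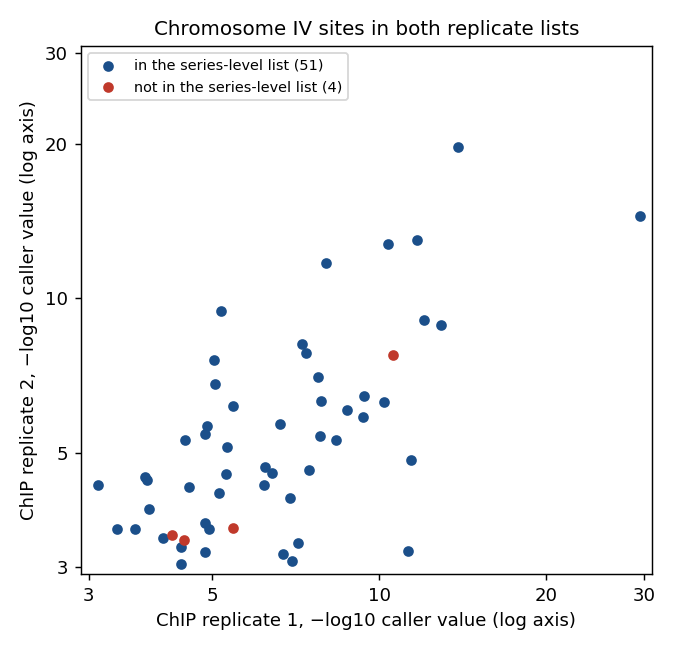
−log10 caller values (log axes) of the 55 chromosome IV sites found in both replicate lists, replicate 1 on the horizontal and replicate 2 on the vertical axis. The point at the far right is the site at 14032486 to 14034580, the highest point is that at 11025803 to 11026388, and red points are the 4 sites with no row in the series-level list.

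Some replicate peaks on chromosome IV had no row in the series-level list. The list had a row for 101 of the 110 replicate 1 peaks (91.8%, interval 85.0 to 96.2%), against 94.5% over all chromosomes, and for 65 of the 72 replicate 2 peaks (90.3%, interval 81.0 to 96.0%), against 96.4%. On the other autosomes the shares were 94.7% and 97.2%. The share over all chromosomes lies inside the chromosome IV interval for replicate 1 and just above it for replicate 2. In both replicates chromosome IV had the lowest share of any chromosome. These differences were not tested. Of the 55 sites shared by the replicates, 4 (7.27%) had no series-level row, as had 6 of 264 (2.27%) on the other autosomes.

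These 4 sites were named after their values were seen. The strongest, at 11070896 to 11071324, was number 45 by strength in replicate 1 and number 68 in replicate 2, with −log10 caller values of 10.6 and 7.76. Its nearest series-level peak lay 11.9 kb away. The sites at 5878086 to 5878464, 9046973 to 9047345 and 13549246 to 13549637 were weaker, with ranks from 202 to 360 in replicate 1 and from 352 to 399 in replicate 2. At these 3 sites the start and the end together differed between the replicates by 5 bp or less, as they did at all 6 such sites of the other autosomes. Over all sites shared by the replicates, ends were that close at 4 of 55 on chromosome IV and 12 of 264 on the other autosomes. Only 1 further chromosome IV site had ends that close, and it was the neighbour of the site at 9046973.

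That neighbour, at 9048084 to 9048470, had a series-level rank of only 1904, against a rank of 98 in replicate 1 and of 153 in replicate 2. The peak at 2828542 to 2828916 also had a low series-level rank. Its ranks were 1467 in the series-level list, 442 in replicate 1 and 230 in replicate 2. All other chromosome IV peaks in both lists were among the 90 strongest of the chromosome.

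Other chromosome IV peaks were found in 1 replicate only. The strongest replicate 1 peak without a replicate 2 partner, at 5753281 to 5753752, ranked 70 of 649, followed by 6097131 to 6097783 (rank 118). The next were at 1595883 to 1596188 (rank 188), 6790490 to 6790769 (rank 194) and 3874539 to 3874930 (rank 204). All 5 had a row in the series-level list. The strongest replicate 2 peaks without a replicate 1 partner were at 3725987 to 3726171 (rank 175 of 495), 1624468 to 1624679 (rank 188) and 682876 to 683145 (rank 202). After them came 3050378 to 3050539 (rank 229) and a peak of only 24 bp at 16625893 to 16625916 (rank 241), which had no series-level row.

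Of the series-level peaks in neither replicate list, the strongest on chromosome IV lay in the centre at 9196571 to 9197615 (1045 bp, rank 212). The next was a right-arm peak at 14620487 to 14622660 (2174 bp, rank 231), the widest on the chromosome. A left-arm peak at 2388738 to 2389405 followed (668 bp, rank 249). The last 2 of the 5 were at 261567 to 261969 (rank 493) and 13029436 to 13031064 (1629 bp, rank 494). Of these 5 peaks, all but those at 2388738 and 261567 were over 1000 bp wide.

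Peaks on chromosome IV had a median width of 260 bp, against 244 bp on the other autosomes. Width and support went together. The median was 422 bp for the 51 peaks in both replicate lists, 344 bp for those in replicate 1 only, 266 bp for those in replicate 2 only and 208 bp for those in neither. On the other autosomes the corresponding medians were 396.5, 305.5, 248 and 202 bp. A wider peak reaches the overlap of 1 bp that defines a partner more easily. Wider peaks were also stronger, with a median −log10 caller value of 10.9 for chromosome IV peaks of at least 1000 bp. The relation of width to support is therefore no separate evidence for the wide sites. No chromosome IV peak in both lists was narrower than 244 bp. The 35 chromosome IV peaks under 50 bp wide were 9.70% of its peaks, against 7.43% over all chromosomes and 7.46% on the other autosomes. They had a median −log10 caller value of 3.32, and 33 of them were in neither list, as were 131 of 135 on the other autosomes. The narrowest spanned 2 bp.

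**Figure D3:**
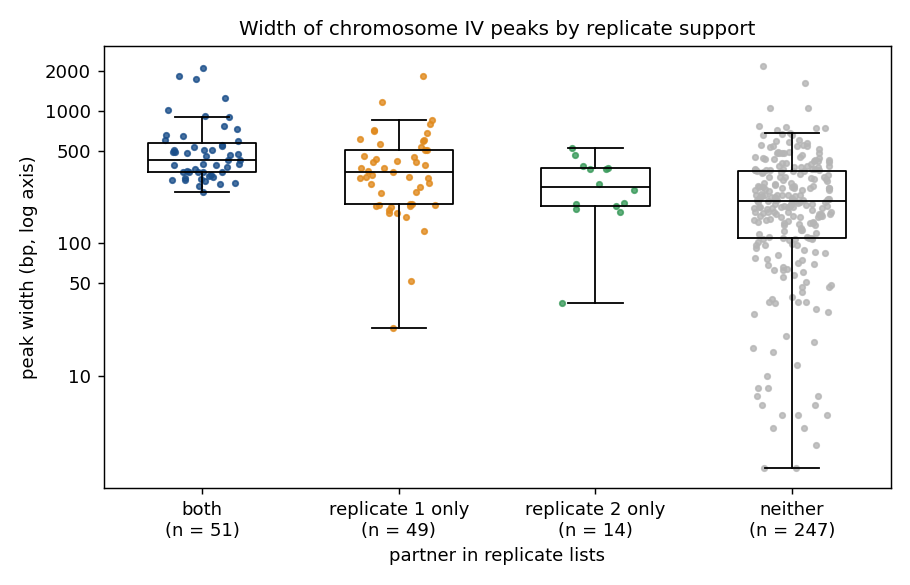
Width (log axis) of the chromosome IV peaks of the series-level list by the replicate lists that hold a partner, with each peak as a point, the median as a line, the quartiles as a box and whiskers to the farthest peak within 1.5 box lengths. All 51 peaks in both lists are at least 244 bp wide, while peaks in neither reach down to 2 bp.

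Wide sites were few. At least 1000 bp was reached by 11 chromosome IV peaks (3.05%), against 2.77% of all series-level peaks and 46 on the other autosomes (2.54%). The odds ratio was 1.21 (interval 0.56 to 2.39, Fisher's exact test, adjusted p = 0.89). In replicate 1 by itself it was 3.31, with 5 of 110 chromosome IV peaks against 7 of 495 (interval 0.81 to 12.4, Fisher's exact test, adjusted p = 0.20), and in replicate 2 it was 1.20. Of the 11 wide peaks, 5 (45.5%) were in both replicate lists and 4 (36.4%) in neither. The shares were close to those of the 46 wide peaks on the other autosomes, with 22 (47.8%) in both and 16 (34.8%) in neither. The 6 peaks of at least 1500 bp included the leading site at 14032486 to 14034580, the centre site at 8431448 to 8433194 and the peaks at 14620487 and 13029436 given above. A right-arm peak at 14611760 to 14613591 (1832 bp, rank 147) was in both lists, ranking 124 in replicate 1 and 407 in replicate 2. The peak at 16491524 to 16493367 (1844 bp, rank 215) overlapped a pair of replicate 1 peaks, 604 and 1046 bp wide, and none of replicate 2.

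Strong peaks were as frequent on chromosome IV as on the other autosomes within counting error. The first 200 ranks of the series-level list held 30 chromosome IV peaks (8.31% of its 361), against 8.54% of the whole list and 139 of 1810 on the other autosomes (7.68%). The odds ratio was 1.09 (interval 0.70 to 1.66, Fisher's exact test, adjusted p = 0.89). The first and the last of these 30 had −log10 caller values of 46.2 and 11.8, and the next peak of the chromosome outside them had 11.2. Over all its peaks the median −log10 caller value was 4.18, against 4.30 on the other autosomes.

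Along the chromosome, peaks were denser on the left arm than on the right. The arms were taken as the outer 25% at each end and the centre as the middle 50%, with the highest peak end, 17443312, standing in for the length. These parts are fixed shares of that length and were not set by recombination or gene density. The left arm then reaches to 4.36 Mb and the right arm begins at 13.08 Mb. In the series-level list the left arm held 117 peaks (26.8 per Mb), the centre 166 (19.03 per Mb) and the right arm 78 (17.9 per Mb). The left arm thus had 60.0% of the 195 arm peaks (interval 52.8 to 66.9%, two-sided exact binomial test against 50%, p = 0.0064). Adjusted over the 5 autosomes the exact binomial p was 0.016. Neighbouring peaks are not independent, so the p is too small and the interval too narrow by an unknown amount, here and in the other tests over peaks. The excess lay mostly in chromosome IV peaks among the 1171 strongest of the list, with 68 on the left arm and 35 on the right (66.0% left). The weaker chromosome IV peaks had 49 and 43 (53.3% left), and those within the first 200 ranks 8 and 7. On the other autosomes the left-arm shares were 44.2% for strong and 45.5% for weak peaks. The difference between strong and weak peaks was not tested.

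Both replicates had more peaks on the left arm, but neither passed the test by itself. Replicate 1 had 39 on the left arm and 28 on the right (58.2% left, interval 45.5 to 70.2%, exact binomial test, p = 0.22). Replicate 2 had 27 and 14 (65.9% left, interval 49.4 to 79.9%, exact binomial test, p = 0.060). Among series-level peaks in both replicate lists the left arm had 19 and the right arm 9 (67.9% left, exact binomial test, p = 0.087). The direction was the same in each list. These lists hold fewer peaks and largely the same sites as the series-level list, so they are no separate evidence.

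The left-arm share was higher on chromosome IV than on the other autosomes together, where the left arms held 410 of 913 arm peaks (44.9%). By Fisher's exact test the odds ratio was 1.84 (interval 1.33 to 2.56, p = 1.4e-04), in a comparison chosen after the values were seen. Chromosome II had the lowest share, with 33.3% of its 204 arm peaks on the left arm (exact binomial test, p adjusted over the 5 autosomes = 1.1e-05). Its imbalance, towards the right arm, was larger than that of chromosome IV. It also passed the exact binomial test in replicate 1 (p = 4.2e-05) and in replicate 2 (p = 0.0014). Unequal arms were therefore not particular to chromosome IV. Without chromosome II the odds ratio by Fisher's exact test was 1.61 (interval 1.15 to 2.25, p = 0.0046). The left-arm shares of chromosomes I, III and V were 47.5%, 48.0% and 49.5%. In the replicate lists chromosome V had left-arm shares of 57.1% and 60.0%, close to the 58.2% and 65.9% of chromosome IV. Among peaks in both replicate lists the share was 66.7% on chromosome V (16 of 24 arm peaks), 67.9% on chromosome IV and 16.7% on chromosome II. Against all other autosomes, Fisher's exact test gave odds ratios of 1.74 in replicate 1 (interval 0.97 to 3.14, p = 0.053) and 2.42 in replicate 2 (interval 1.14 to 5.34, p = 0.015).

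**Figure D4:**
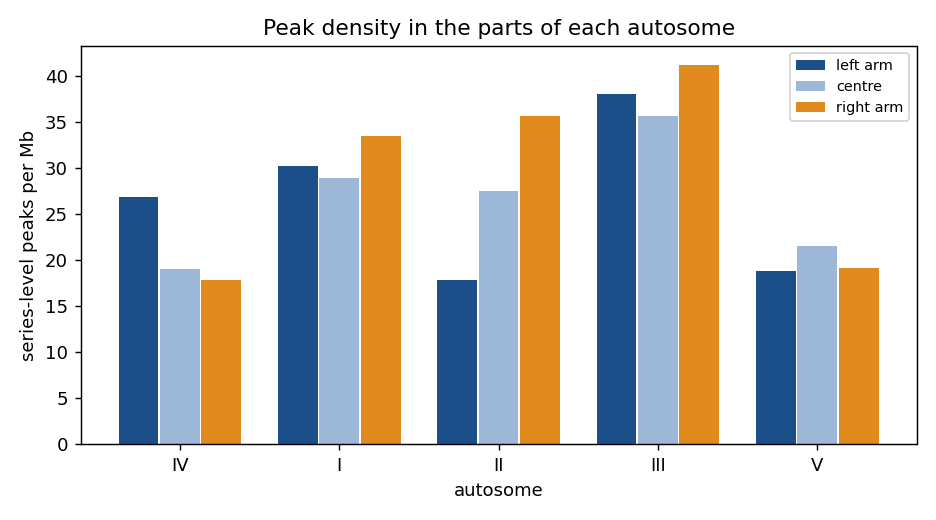
Series-level peaks per Mb (bars) on the left arm, centre and right arm of chromosome IV and of the other autosomes, with no error drawn. Chromosome IV has 26.8 per Mb on the left arm against 17.9 per Mb on the right arm.

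**Figure D5:**
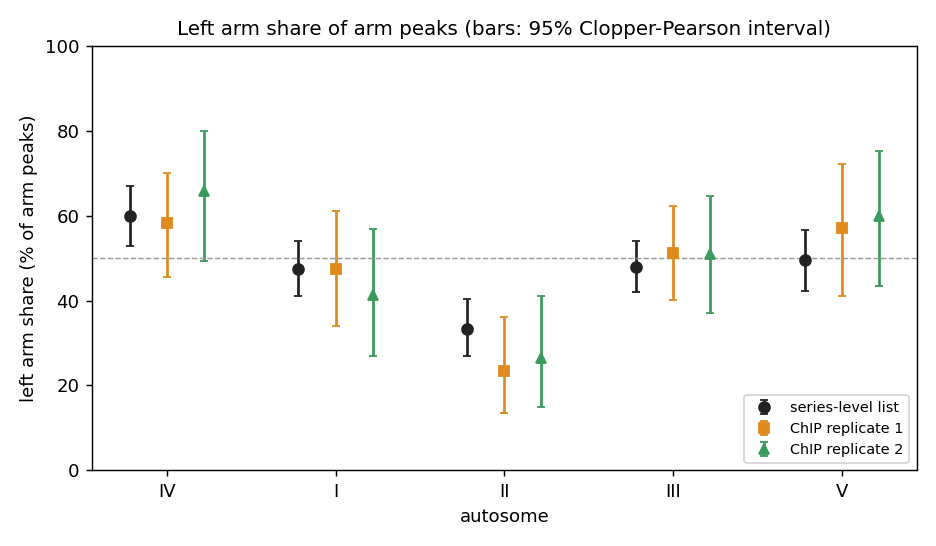
Left-arm peaks as a percentage of the peaks on both arms, for each autosome and each list, with 95% Clopper-Pearson intervals and a dashed line at 50%. Chromosome IV lies above 50% in all 3 lists, with 60.0% in the series-level list, and chromosome II below it.

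The centre of chromosome IV held 46.0% of its peaks (interval 40.8 to 51.3%, exact binomial test against 50%, p = 0.14), against 49.6% on the other autosomes. Strong and weak peaks differed in this share, by an amount that was not tested. Of the 171 chromosome IV peaks among the 1171 strongest of the list, 68 (39.8%, interval 32.4 to 47.5%) lay in the centre, 68 on the left arm and 35 on the right arm (exact binomial test of the centre, p = 0.0091). Of the 190 weaker ones, 98 (51.6%) lay in the centre. On the other autosomes the centre held 50.0% of the strong and 49.1% of the weak peaks. The low share did not extend to the strongest chromosome IV peaks, as 15 of the 30 within the first 200 ranks lay in the centre. Of the 51 chromosome IV peaks in both replicate lists, 23 did (45.1%, exact binomial test, p = 0.58). The centre share was also below 50% in replicate 1 (39.1%, exact binomial test, p = 0.028) and in replicate 2 (43.1%, p = 0.29).

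Differences in strength and support of the peaks among the parts of the chromosome were not tested. Of the 117 left-arm peaks 68 were among the 1171 strongest of the list, as were 68 of the 166 centre peaks and 35 of the 78 right-arm peaks. The median −log10 caller value was 4.71 on the left arm, 4.05 in the centre and 4.11 on the right arm. Both replicate lists held a partner of 19 of 117 left-arm peaks (16.2%, interval 10.1 to 24.2%), 23 of 166 centre peaks (13.9%, interval 8.99 to 20.1%) and 9 of 78 right-arm peaks (11.5%, interval 5.41 to 20.8%). These intervals overlap widely. Of the 30 peaks within the first 200 ranks, 8 lay on the left arm, 15 in the centre and 7 on the right arm.

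Complete 1 Mb bins held a median of 21 series-level peaks, with 11 as the lowest and 30 as the highest count. The fullest bins were those from 2 to 3 Mb (30 peaks) and from 3 to 4 Mb (29 peaks) on the left arm, and the emptiest was that from 15 to 16 Mb (11 peaks) on the right arm. The bin from 11 to 12 Mb had 20 series-level peaks, of which 5 were in both replicate lists, as many as the bins from 0 to 1 Mb and 2 to 3 Mb. No bin was without a peak of each replicate.

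Chromosome IV carried 20.7 peaks per Mb, against 27.9 per Mb on the other autosomes together. Midpoints of neighbouring peaks were a median of 27.5 kb apart on chromosome IV, against 20.6 kb on the other autosomes together. Chromosome V was as sparse as chromosome IV, with 20.3 peaks per Mb and a median of 29.0 kb. Another midpoint lay within 5 kb for 124 of the 361 peaks (34.3%, interval 29.5 to 39.5%), against 33.9% over all chromosomes and 36.0% on the other autosomes. The odds ratio was 0.93 (interval 0.73 to 1.19, Fisher's exact test, adjusted p = 0.89). On the left arm 39.3% of peaks had such a neighbour, in the centre 33.1% and on the right arm 29.5%.

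The densest 20 kb windows on chromosome IV held 5 series-level peaks each. The window from 14610860 to 14622660 on the right arm was the only one of the 3 with strong sites. It held the peak at 14610860 to 14611391 (rank 134), the 1832 bp peak beside it (rank 147) and the 2174 bp peak without replicate support, with 3 replicate 1 peaks and 2 replicate 2 peaks in all. The window from 16382027 to 16399877 had 3 replicate 1 peaks and 1 of replicate 2, with no series-level peak better than rank 717. The window from 6638603 to 6649122 in the centre had no peak of either replicate, and its best series-level rank was 1197.

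The longest stretches without a series-level peak were 369.4 kb at 15795341 to 16164756 on the right arm, 368.2 kb at 9884214 to 10252379 and 277.6 kb at 10419598 to 10697147 in the centre. None of the 3 held a peak of replicate 1 or replicate 2 either. How much of these stretches could be mapped by the reads is not given in the sources used here.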

How the data were processed

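Peak lists of 2 ChIP libraries and 1 series-level list were analysed; no values of the 2 input libraries were used. The authors deposited positions and 1 p-value or q-value per peak, which the files do not tell apart. The build is WormBase WS220, per the file headers, and PeakSeq is named as the source of every peak in the files themselves. For its version, the aligner, the filters, the use of the input as control and any pooling, nothing is given in the sources used here. Read depth is unknown, so intervals cover counting of peaks only.

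Lists were read with Python 3.11.15 and pandas 2.3.3. Tests used SciPy 1.17.1 and were two-sided: exact binomial tests for the parts of chromosome IV, and Fisher's exact tests of chromosome IV against chromosomes I, II, III and V. These Fisher p-values were adjusted by Benjamini-Hochberg over 4 comparisons (partner in both replicate lists, first 200 ranks, width of at least 1000 bp, neighbour within 5 kb). Tests of the left-arm share against other autosomes, and of each autosome's arms, were added after the data were seen, and their Fisher p-values are unadjusted. Alternatives were stricter overlaps, single replicate lists, stronger peaks, 1 peak per 10 kb cluster and other limits of the arms, widths and distances. The functions were tested on simulated lists.

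The peaks and comparisons were chosen with earlier results of these data known. Peaks named by rule were the 15 strongest in both replicate lists, those at least 1500 bp wide, the 5 strongest of each replicate without the other, the 5 strongest in neither, the strongest of each part, the 3 densest 20 kb windows and the 3 longest stretches without a peak. Others were chosen after their values were seen. The planned half-site search and gene names needed a genome of WS220 and were not run.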

Additional observations from a re-analysis of the deposited data

How the results depend on the processing

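The share of chromosome IV series-level peaks in both replicate lists stayed inside its interval with stricter overlaps, without narrow and very wide peaks and in the stronger part of each list. It was 18.2% with 1 peak per 10 kb cluster and 18.0% to 27.7% with a partner asked of 1 replicate alone. Its odds against the other autosomes crossed 1 without passing the threshold: 1.03 with at least 50% overlap of both peaks, 1.02 for peaks of 50 to 2000 bp, 1.34 in the stronger part of each list, and 0.84 to 1.10 with 1 replicate alone. So did the odds of strong peaks (0.99 for the first 100 ranks) and of neighbours within 5 kb (1.03 among peaks in both replicate lists, and 0.91 to 1.11 in the single replicate lists). Neighbours within 20 kb had odds of 0.73 (Fisher's exact test, adjusted p = 0.052). The centre share was 39.8% among the stronger peaks, 39.1% to 43.1% in the single replicate lists, 45.1% among peaks in both replicate lists and 48.2% with 1 peak per 10 kb cluster. The odds of a wide peak stayed above 1 and short of the threshold in every setting run, at 1.20 to 3.31 in the single replicate lists. The left-arm share was over 50% in every setting run. It missed the threshold, with fewer peaks tested, in the single replicate lists (58.2% to 65.9%) and among peaks in both lists (67.9%). Against the other autosomes its odds ratio ran from 1.61 to 2.93 over all alternatives, with 1.74 to 2.42 in the single replicate lists, of which replicate 1 missed the threshold. The highest, 2.93, was that of peaks in both replicate lists. In that set chromosome V by itself had a left-arm share of 66.7%, close to the 67.9% of chromosome IV. No paired analysis was possible because only the ChIP libraries have peak lists. The searches that need a genome were not run.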
